A study of Mus musculus with 8 samples.

Results

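The genes described here encode collagens, grouped by the kind of assembly their chains form. A probe set was taken as a member when the platform annotation gave it exactly 1 gene symbol and that symbol named a collagen chain, and where a gene had several such probe sets the one with the highest mean over the 8 arrays stood for it. This gave 42 genes, from 46 probe sets, of 18820 genes and 21218 probe sets with 1 symbol. They comprised 9 fibrillar genes (types I, II, III, V and XI), 8 basement membrane genes (types IV, XV and XVIII), 6 type VI genes and 19 others. Another 2 probe sets that carry a collagen symbol together with another gene's symbol were left out. The samples were total RNA of CD3-positive T cells taken from xenografts of tissue derived from human embryonic stem cells, at day 30, from wildtype CD1 mice, an outbred strain. In the 4 rejecting samples the host had been left untreated, and in the 4 tolerant samples it had been tolerised by injected antibodies against CD4, CD8 and CD40L. No age is labelled, and nothing in the labels assigns the samples to separate mice. The p-values therefore reflect the spread among these samples alone, and that spread may be technical. The grafts were of human origin and the hosts were mice.

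Collagens are extracellular proteins in which chains with glycine at regular intervals wind around each other into a stiff helix. Fibrillar collagens pack into the cable-like fibrils of connective tissue, and fibril-associated collagens such as types XII and XIV bind to the surface of those fibrils. Type IV collagen forms the sheet-like network of basement membranes under epithelia and around vessels, and type VI collagen forms beaded microfibrils close to cells. They are made mainly by fibroblasts and other connective tissue cells, by cartilage and bone cells and, for type IV, by epithelial and endothelial cells. T cells are not known as a main source.

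Values are log2 RMA values, a scale on which a difference of 1 is a 2-fold difference, and differences are tolerant minus rejecting. The arrays fall into 2 sets that do not follow the groups, numbers 1 and 2 with little signal and numbers 3 and 4 with more, and each set holds 2 rejecting and 2 tolerant samples. A background line was drawn on each array so that 99 percent of 1182 odorant and vomeronasal receptor probe sets, receptors of sensory neurons, lay at or under it, and it lay between 0.99 and 1.35. Of all genes, 2.52% to 5.57% lay above it on arrays 1 and 2 and 9.12% to 16.3% on arrays 3 and 4. The T cell label was checked against 16 measured markers, of which 13 lay above the line on at least 1 of arrays 3 and 4, while Cd3d, Cd247 and Cd28 lay above it on none of the 8 arrays. Cd3e, a signalling chain of the receptor of T cells, read 1.51 and 2.36 in rejecting samples 3 and 4, called the rejecting pair from here on, and 2.75 and 3.82 in the tolerant pair, tolerant samples 3 and 4.

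Collagen genes lay above the line more often on arrays 3 and 4 than on arrays 1 and 2. On arrays 1 and 2, 6 of the 42 were above it in each rejecting sample, and 5 and 2 in the tolerant samples. On arrays 3 and 4 the counts were 23 and 19 in the rejecting pair and 27 and 25 in the tolerant pair. The share of all genes above the line went the same way. It was 4.81% and 5.57% in rejecting samples 1 and 2, and 2.77% and 2.52% in tolerant samples 1 and 2. In the rejecting pair it was 14.3% and 9.12%, and in the tolerant pair 16.3% and 15.9%. The line itself also differed between arrays, so these counts follow the line and the signal of each array as well. Of the 42 genes, 18 lay above the line on all 4 arrays numbered 3 and 4, and 11 on none of the 8 arrays. Only Col1a1 and Col9a2 lay above it on all 8. In bulk RNA of this kind, fewer cells of a type and less RNA per cell cannot be told apart.

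**Figure D1:**
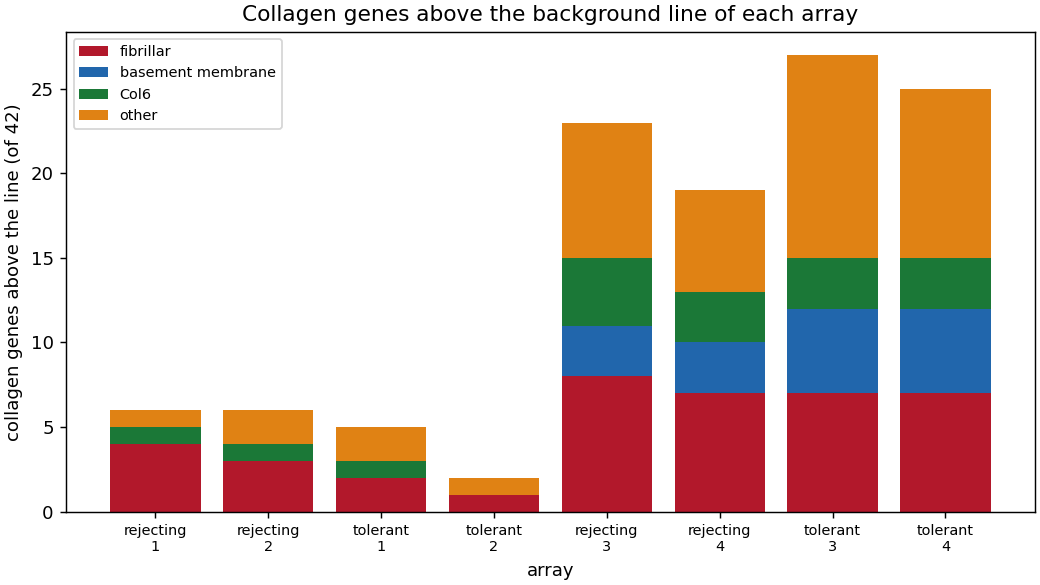
Number of collagen genes above the background line on each array, stacked by type, with arrays 1 and 2 on the left and arrays 3 and 4 on the right. The 4 arrays numbered 1 and 2 hold 2 to 6 such genes of 42, and the 4 arrays numbered 3 and 4 hold 19 to 27.

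On arrays 3 and 4, the chains of type I and type III collagen, the main collagens of connective tissue fibrils, had higher values in both tolerant samples than in both rejecting samples, although none passed the test. Col1a1 (probe set 10380419), the alpha1 chain of type I collagen, read 3.39 and 3.08 in the rejecting pair and 4.14 and 3.78 in the tolerant pair. Its difference was 0.72 (standard error, SE, 0.17; limma adjusted p = 0.431). Col1a2 (10536220), the other chain of type I collagen, read 2.24 and 2.04 in the rejecting pair and 2.77 and 2.56 in the tolerant pair. All 4 values of each gene lay above the line, and the groups did not overlap. The difference of Col1a2 was 0.53 (SE 0.13, limma adjusted p = 0.457). Col3a1 (10346015), the chain of type III collagen, which is laid down with type I in skin and vessels, read 2.09 and 1.63 in the rejecting pair and 2.34 and 2.40 in the tolerant pair. Its difference of 0.51 (SE 0.17, limma adjusted p = 0.610) went to 0.28 without rejecting replicate 4, the lower of the rejecting values.

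The other fibrillar genes spread from the next largest differences down to the lowest of the type. Col11a2 (10444152), a chain of the type XI collagen of cartilage, read 1.43 and 1.35 in the rejecting pair and 1.69 and 1.76 in the tolerant pair, without overlap. Its difference was 0.34 (SE 0.11, limma adjusted p = 0.572). The type V chains, which sit inside type I fibrils and regulate their width, had differences of both signs. Col5a1 (10470462) read 1.70 and 1.29 in the rejecting pair and 1.96 and 1.50 in the tolerant pair, which overlap. Col5a2 (10354309) read 0.66 and 0.64 against 0.77 and 0.74, without overlap but under the line on all 8 arrays. Col5a3 (10591281) read 1.81 and 1.25 in the rejecting pair and 1.26 and 1.20 in the tolerant pair, so that 1 rejecting sample stood above the other 3 values, and its difference was -0.30 (SE 0.20, limma adjusted p = 0.774). Col2a1 (10432045), the collagen of cartilage fibrils, read 1.60 and 1.68 against 1.69 and 1.70, a difference of 0.05 that turned to -0.01 after quantile normalization. Col11a1, a chain that joins Col11a2 in type XI collagen, had a difference of -0.07.

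The promoters of Col1a2, Col3a1 and Col5a3 are shown because these are the fibrillar genes with the largest differences in each direction on arrays 3 and 4 that have an entry in the promoter table. Col1a1 has none there. Each is the 250 bases before the gene's start, 5′ to 3′ on the gene's strand, from RefSeq on GRCm38.p6. Capitals mark matches on either strand to the CCAAT box, to the letters TATAAA of a TATA box and to the letters GGGCGG of a GC box.
Col1a2, chr6:4505368-4505617, plus strand: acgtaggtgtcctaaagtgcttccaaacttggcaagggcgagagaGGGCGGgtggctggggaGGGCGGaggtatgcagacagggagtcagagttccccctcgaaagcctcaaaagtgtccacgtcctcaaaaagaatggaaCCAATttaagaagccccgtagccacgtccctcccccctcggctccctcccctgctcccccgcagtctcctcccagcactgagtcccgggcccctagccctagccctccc
Col3a1, chr1:45311288-45311537, plus strand: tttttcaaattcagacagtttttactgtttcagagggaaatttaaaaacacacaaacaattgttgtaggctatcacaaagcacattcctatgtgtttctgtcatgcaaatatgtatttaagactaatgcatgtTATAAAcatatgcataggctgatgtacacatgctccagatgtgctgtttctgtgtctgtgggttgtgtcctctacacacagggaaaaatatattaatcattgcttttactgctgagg
Col5a3, chr9:20815068-20815317, minus strand: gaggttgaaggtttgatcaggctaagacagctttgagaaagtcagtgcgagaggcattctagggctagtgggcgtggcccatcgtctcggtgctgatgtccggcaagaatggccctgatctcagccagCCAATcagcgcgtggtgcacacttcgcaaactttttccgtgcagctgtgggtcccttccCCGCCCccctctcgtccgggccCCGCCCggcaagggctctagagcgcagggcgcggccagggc
Col1a2 held 1 CCAAT, with its first base at -109 from the start, and 2 GGGCGG. Col5a3 held 1 CCAAT at -122 and 2 matches to GGGCGG on the other strand, while Col3a1 held neither and had 1 TATAAA at -117. The 3 promoters thus differ in letters, and 2 of the genes with opposite differences share the CCAAT box and the GC box. Of the 42 genes, 34 had an entry, with 37 windows in all. CCAAT was in 32.4% of these windows and in 33.8% of all 32851 windows of the same length, and TATAAA was in 13.5% and 12.4%. GGGCGG was in 56.8% of collagen windows and 32.7% of all windows. The 3 motifs share no letters in a way that makes one contain another, and a match describes the letters only.

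**Figure D2:**
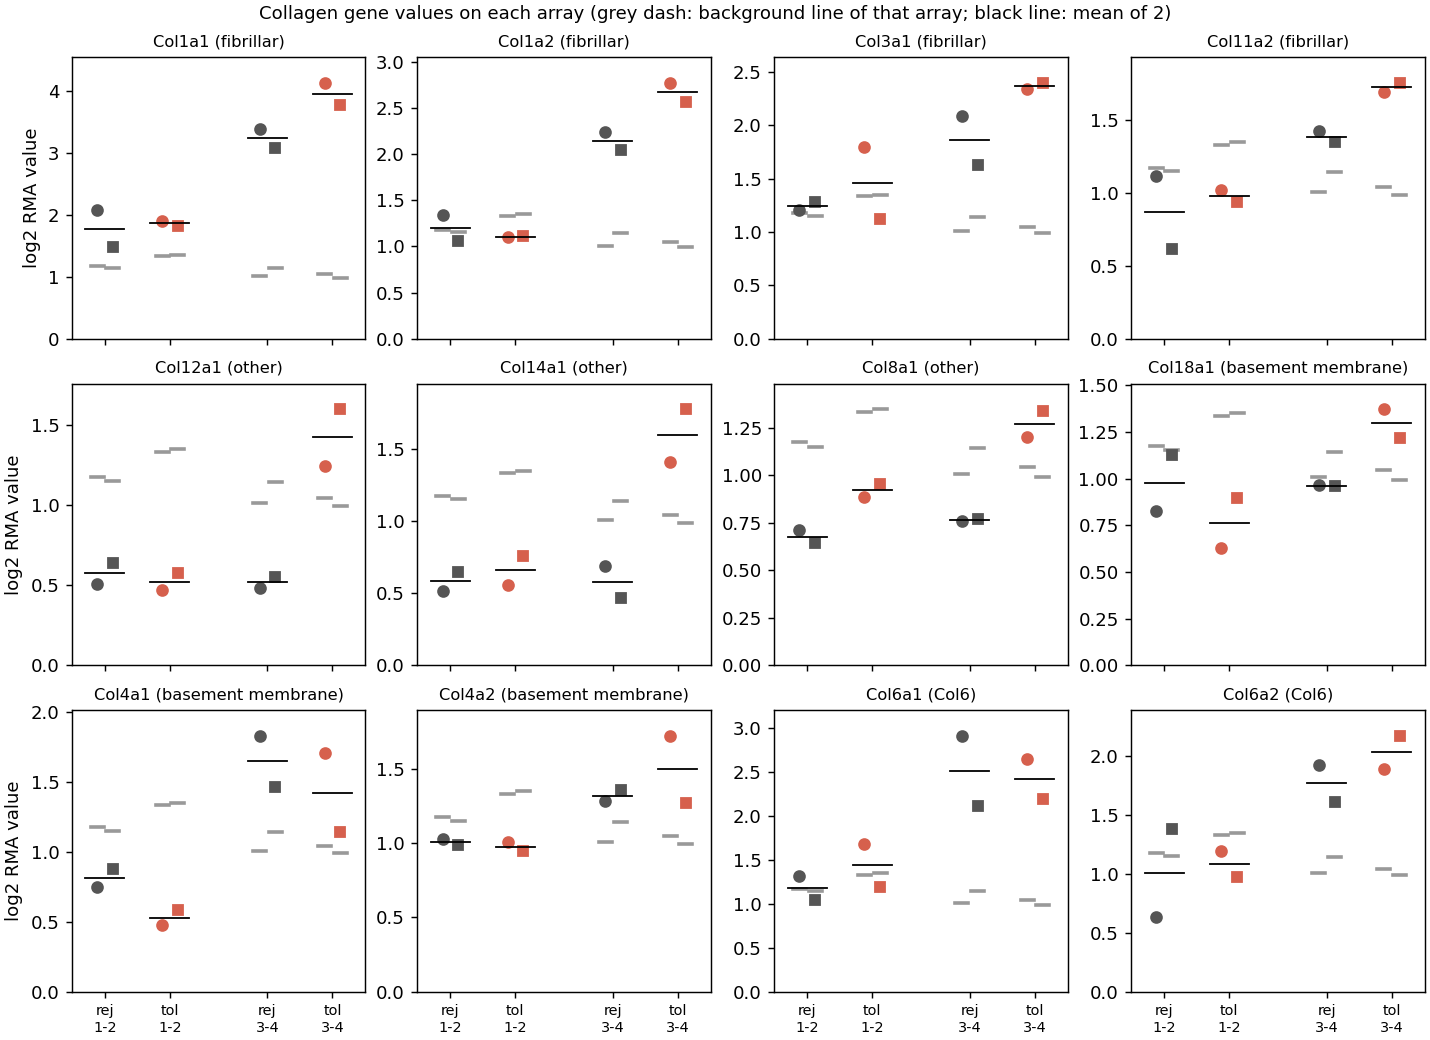
Log2 RMA values of 12 collagen genes on each array, for rejecting (grey) and tolerant (red) samples of arrays 1 and 2 and of arrays 3 and 4; circles are numbers 1 and 3, squares 2 and 4, black lines the mean of 2 samples and grey dashes the background line of each array. Col12a1 and Col14a1 lie above the line only in tolerant samples 3 and 4, and Col1a1 lies above it on all 8 arrays.

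The largest measured differences among the collagens on arrays 3 and 4 were those of Col14a1 and Col12a1, although their rejecting values were under the line. They encode fibril-associated collagens of types XIV and XII that bind type I fibrils. Col14a1 (10424140) read 0.69 and 0.47 in the rejecting pair and 1.41 and 1.78 in the tolerant pair. Its difference was 1.02 (SE 0.16, 95% interval 0.61 to 1.43, limma adjusted p = 0.224). Col12a1 (10595211) read 0.48 and 0.55 in the rejecting pair and 1.25 and 1.60 in the tolerant pair, a difference of 0.90 (SE 0.15, 95% interval 0.53 to 1.27, limma adjusted p = 0.224). Both genes lay under the line on the other 6 arrays and above it only in tolerant samples 3 and 4. A tolerant mean counted from the line, here and below, is that mean less the mean line of the rejecting pair. It thus takes the rejecting values as lying at that line. Counted so, tolerant samples were higher by 0.52 for Col14a1 and by 0.35 for Col12a1. Col1a1 and Col1a2 had measured differences of 0.72 and 0.53. Whether Col14a1 and Col12a1 lead therefore depends on values at background. Neither passed in the fit of these 4 arrays, whereas both passed when the same contrast was taken from 1 fit of all 8 arrays, in which arrays 1 and 2 also set the spread (limma adjusted p = 0.0439 for Col14a1 and 0.0491 for Col12a1). Under the other alternatives their adjusted p ran from 0.106 to 0.580 and from 0.106 to 0.574. That fit called 2 of the 42 collagen genes and 81 probe sets in all.

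The other fibril-associated genes had small differences. Col9a2 (10507742), a chain of the type IX collagen on cartilage fibrils, read 2.75 and 2.47 in the rejecting pair and 2.90 and 2.33 in the tolerant pair, with the tolerant values on either side of the rejecting ones. Col16a1 (10508533), a collagen near fibrils and microfibrils, read 1.77 and 1.36 against 1.63 and 1.41. Col22a1 (10429234), found at tissue junctions such as that of muscle and tendon, read 1.32 and 1.17 against 1.53 and 1.06. In each of these genes the groups overlap. Col9a1, Col19a1 and Col20a1 had differences of 0.02, 0.01 and 0.04. Of the 8 fibril-associated genes, the 6 besides Col14a1 and Col12a1 thus lay between -0.04 and 0.05.

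The network-forming collagens of short chains had higher tolerant values in each of the 3 genes measured, without overlap, as 19.3% of all probe sets had. Col8a1 (10440091), which lines vessel walls and the cornea, read 0.76 and 0.77 in the rejecting pair and 1.20 and 1.34 in the tolerant pair. Its difference was 0.51 (SE 0.11, limma adjusted p = 0.362), or 0.19 counted from the line, above which only the tolerant values lay. Col8a2, its partner chain, and Col10a1, the collagen of hypertrophic cartilage, had differences of 0.21 and 0.15 (limma adjusted p = 0.772 and 0.785). Col10a1 lay under the line on all 8 arrays, and Col8a2 lay above it on 1.

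Transmembrane collagens and the remaining genes had no difference above 0.25. Col23a1 (10375838), a collagen anchored in the cell membrane, read 1.51 and 1.16 in the rejecting pair and 1.65 and 1.02 in the tolerant pair. Col13a1, Col17a1 and Col25a1, of the same class, had differences of 0.08, 0.00 and -0.05. Col27a1 (10505374), a fibril-forming chain of cartilage that the grouping places among the others, read 1.54 and 2.16 against 1.81 and 1.57, and Col24a1, its relative, had a difference of -0.17. Col28a1 (10543082), a collagen of peripheral nerve, read 0.79 and 1.50 in the rejecting pair and 0.95 and 0.69 in the tolerant pair. Its difference of -0.32 (SE 0.25, limma adjusted p = 0.800) was the lowest measured among the 42, but it went to 0.03 without rejecting replicate 4, its only value above the line on any array. Col26a1 had a difference of 0.25.

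Basement membrane collagens went both ways on arrays 3 and 4. Col4a1 (10576973) and Col4a2 (10570068) encode the chains of the type IV collagen found in nearly all basement membranes, and the genes are neighbours on chromosome 8. Col4a1 read 1.83 and 1.46 in the rejecting pair and 1.71 and 1.14 in the tolerant pair, a difference of -0.23 (SE 0.23, limma adjusted p = 0.838). Col4a2 read 1.28 and 1.36 against 1.72 and 1.27, a difference of 0.18 (SE 0.17, limma adjusted p = 0.836). In both genes the groups overlap. Col4a3 and Col4a4, chains of the basement membrane of the kidney glomerulus and neighbours on chromosome 1, also had differences of both signs. Col4a3 (10347807) read 1.61 and 1.33 in the rejecting pair and 1.24 and 1.23 in the tolerant pair, without overlap, a difference of -0.24 (limma adjusted p = 0.740). Col4a4 had a difference of 0.31 (limma adjusted p = 0.713), but only its tolerant values lay above the line, by 0.10 when counted from it. Col4a5 and Col4a6, on the X chromosome, had differences of 0.01 and -0.01 and lay under the line on all 8 arrays.

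Types XV and XVIII carry sugar chains at basement membranes, and the end of Col18a1 is released as endostatin, an inhibitor of vessel growth. Col18a1 (10370259) read 0.96 and 0.96 in the rejecting pair and 1.37 and 1.22 in the tolerant pair, with only the tolerant values above the line. Its difference was 0.33 (SE 0.11, limma adjusted p = 0.599), and 0.22 counted from the line. Col15a1 (10504775) read 0.95 and 0.93 against 1.01 and 0.95 and lay under the line on all 8 arrays.

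The type VI genes overlapped between the groups in 6 of 6 cases on arrays 3 and 4. Of all probe sets, 19.3% were higher without overlap and 20% lower, so most overlapped as well. Col6a1 (10370210) and Col6a2 (10370180), neighbours on chromosome 10, encode chains of the common form of type VI collagen. Col6a1 read 2.92 and 2.12 in the rejecting pair and 2.65 and 2.20 in the tolerant pair, a difference of -0.10 with a 95% interval of -0.84 to 0.64. Its values differed more within the rejecting group than between the groups. Col6a2 read 1.92 and 1.62 against 1.89 and 2.18, a difference of 0.26 (SE 0.16, limma adjusted p = 0.768). Col6a3 (10356520), the third chain of that form, read 0.70 and 0.83 against 0.64 and 0.92, under the line on all 8 arrays. Col6a6 (10596383) read 1.34 and 1.17 against 1.19 and 1.42, and Col6a4 and Col6a5 had differences of 0.02 and 0.01. The intervals of these genes are wide beside their differences, so equal levels are not shown.

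By type, fibrillar genes stood highest on arrays 3 and 4. Their median difference was 0.24 over 9 genes, against 0.02 for the 8 basement membrane genes, 0.02 for the 6 type VI genes and 0.02 for the 19 others. The median of the 42 genes was 0.04, and that of all 21218 probe sets was -0.01. Limma called 0 of the 42 at adjusted p under 0.05, in a comparison where it called 0.0518% of all probe sets (11 of 21218), 0.0471% as higher and 0.00471% as lower. At an unadjusted p under 0.05 there were 8 of the 42, against 7.21% of all. A difference above 0.5 was found in 6 of the 42, against 2.59% of all, and one below -0.5 in 0 of the 42, against 0.914%. Tolerant values lay above rejecting values without overlap in 15 of the 42, 6 of them fibrillar, against 19.3% of all probe sets. They lay below without overlap in 2 of the 42, Col4a3 and Col24a1, against 20% of all.

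The count of genes with a difference above 0 fell after quantile normalization but not after median centring. As deposited it was 30 of 42, or 71.4%, against 48.2% of all probe sets. After median centring of the 4 arrays it was 32 of 42, or 76.2%, against 52.9% of all. After quantile normalization it was 23 of 42, or 54.8%, against 52.8% of all. The 9 genes that changed sign after quantile normalization had differences near 0. They did not include Col1a1, Col1a2, Col3a1, Col8a1, Col11a2, Col12a1, Col14a1 or Col18a1. Those genes had larger differences on these same arrays, so their kept sign adds no separate support. The fibrillar median of 0.24 went to 0.09 without tolerant replicate 3, to 0.10 without rejecting replicate 4 and to 0.38 without rejecting replicate 3, and it was 0.12 with the mean over the probe sets of each gene. With 1 array left out, the median of the type VI genes ran from -0.01 to 0.22, that of the 19 others from -0.08 to 0.16 and that of basement membrane genes from 0.00322 to 0.06. The median of the 42 genes was 0.00736 after quantile normalization, where that of all probe sets was 0.01.

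**Figure D3:**
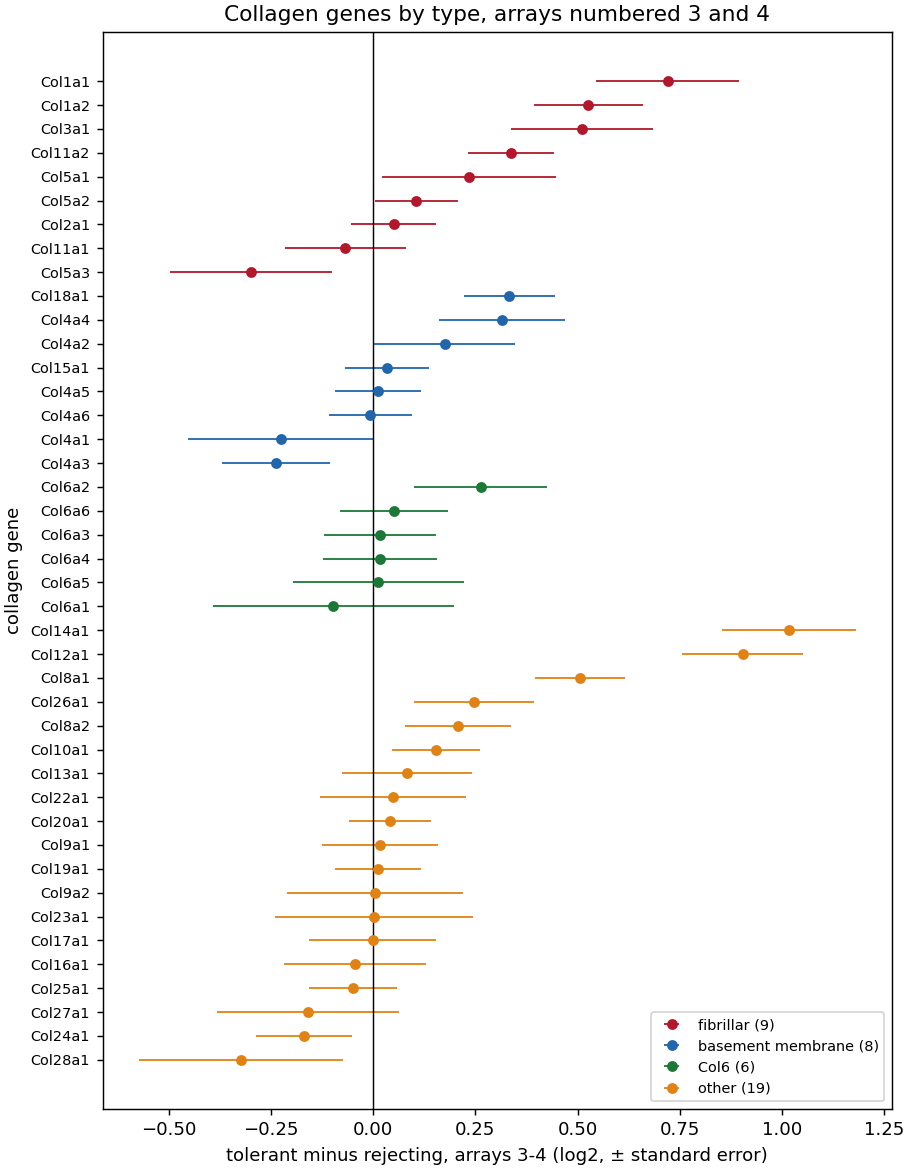
Difference between tolerant and rejecting samples of arrays 3 and 4 for each of the 42 collagen genes, in log2 units with its standard error from limma, ordered within type. Col14a1 and Col12a1 stand farthest to the right, at 1.02 and 0.90 with rejecting values under the background line, and Col28a1 is the lowest, at -0.32.

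Over all 8 arrays no collagen gene passed the test. Each group holds both sets of arrays, and the spread within groups was wide for genes such as Col1a1 that differed between the sets. Col1a1 averaged 2.51 ± 0.88 for rejecting and 2.91 ± 1.22 for tolerant arrays (SD, n = 4 each). Col14a1 averaged 0.58 ± 0.11 and 1.13 ± 0.57 (SD, n = 4 each), or 0.55 higher (SE 0.24). Col12a1 averaged 0.55 ± 0.07 and 0.97 ± 0.54 (SD, n = 4 each), a difference of 0.42. Col8a1 was the 1 gene of the 42 whose groups did not overlap over the 8 arrays, against 1.09% of all probe sets that were higher without overlap. It averaged 0.72 ± 0.06 and 1.10 ± 0.21 (SD, n = 4 each), a difference of 0.37 (SE 0.11, limma adjusted p = 1), and 6 of its 8 values lay under the line. Limma called 0 of the 42 and 0% of all probe sets, and 1 of the 42, Col8a1, had an unadjusted p under 0.05, against 2.89% of all. The median of the 42 differences was 0.03, with 24 of 42 above 0 against 50.1% of all. With 1 array left out they ran from -0.06 to 0.12 and from 12 to 33. Col14a1 was the 1 gene above 0.5, against 0.698% of all, and 0 were below -0.5, against 0.349%.

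On arrays 1 and 2 the collagen genes had differences between -0.28 (Col4a1) and 0.34 (Col25a1). Col1a1 read 2.08 and 1.48 in rejecting samples 1 and 2, and 1.90 and 1.83 in tolerant samples 1 and 2, which overlap. Col1a2 read 1.34 and 1.06 against 1.10 and 1.11, and Col3a1 read 1.20 and 1.29 against 1.80 and 1.12. Col14a1 and Col12a1 had differences of 0.08 and -0.06, with all 8 of their values under the line. Col8a1 read 0.71 and 0.64 against 0.89 and 0.95, again without overlap, but under the line. Limma called 0 of the 42 and 0% of all probe sets, and 0 of the 42 had an unadjusted p under 0.05, against 5.15% of all. The difference was above 0 in 20 of the 42, against 49.4% of all, and beyond 0.5 in either direction in 0, against 1.19% of all above 0.5 and 1.34% below -0.5. Values without overlap were higher in 4 of the 42, against 17.2% of all, and lower in 7, against 17.1%. With so few collagen genes above the line, a difference on these arrays was not detectable for most of them.

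Whether the difference was larger on arrays 3 and 4 than on arrays 1 and 2 was tested as an interaction. Col12a1 and Col14a1 measured 0.96 (SE 0.21) and 0.94 (SE 0.23; limma adjusted p = 0.237 and 0.326), but 6 of the 8 values of each were under the line, so these sizes rest on background. Col1a1, Col1a2 and Col18a1 had 0.64, 0.62 and 0.55, and Col5a3 had the lowest, -0.55 (limma adjusted p = 0.708). Of these, Col18a1 also had 6 of its 8 values under the line. Col1a2 lay above it on 1 of the 4 arrays numbered 1 and 2, and Col5a3 on 0. With 1 array left out, Col5a3 ran from -0.83 to -0.27. Limma called 0 of the 42, against 0.0566% of all probe sets (12 of 21218), 0.0471% as higher and 0.00943% as lower, and 5 of the 42 had an unadjusted p under 0.05, against 7.13% of all. The interaction was above 0 in 30 of the 42, against 50.2% of all, above 0.5 in 5, against 5.45%, and below -0.5 in 1, Col5a3, against 3.56%. For genes under the line on arrays 1 and 2, an absent difference cannot be told apart from an absent signal there, whereas Col1a1 was above it on all 8 arrays.

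**Figure D4:**
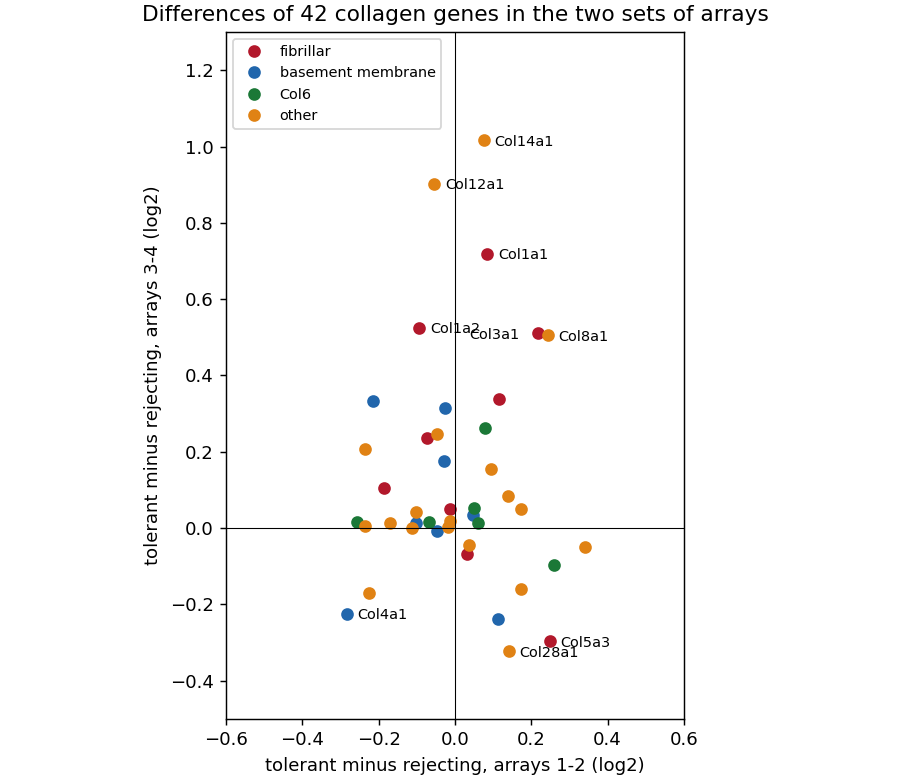
Difference between tolerant and rejecting samples for each of the 42 collagen genes on arrays 1 and 2 (horizontal axis) and on arrays 3 and 4 (vertical axis), in log2 units and coloured by type. Col14a1, Col12a1 and Col1a1 lie high on the vertical axis, at 1.02, 0.90 and 0.72, and near 0 on the horizontal one.

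Of the 42 genes, 4 had a further probe set, which lay lower in mean and did not always show the same difference. For Col5a1 the further probe set (10481259) had a difference of 0.01 on arrays 3 and 4, against 0.24 for the one used. For Col6a6 (10596394) it had -0.13 against 0.05, for Col6a5 (10596403) 0.14 against 0.01, and for Col20a1 (10479510) -0.05 against 0.04. None of these passed in limma, with adjusted p between 0.791 and 0.992 on those arrays.

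Proteins that bind collagen fibrils held the largest differences among the lists of collagen partners on arrays 3 and 4. The list of 19 measured genes had 17 with a difference above 0, against 48.2% of all probe sets, and a median of 0.40. Of them 2 passed, both higher, against 0.0518% of all. Bgn, the proteoglycan biglycan, rose from 1.46 and 1.59 in the rejecting pair to 4.16 and 4.06 in the tolerant pair, by 2.59 (limma adjusted p = 0.00826). Fmod, fibromodulin, which binds type I fibrils, rose from 0.43 and 0.43 to 2.04 and 1.87, by 1.53 (limma adjusted p = 0.0440). Its rejecting values were under the line, and counted from the line it was higher by 0.88. Dcn, decorin, a proteoglycan on the surface of fibrils, read 1.76 and 1.10 against 4.90 and 4.39 (limma adjusted p = 0.0581). Sparc, which binds collagen as it is secreted, read 2.83 and 2.19 against 4.82 and 4.45 (limma adjusted p = 0.128). In each of the 4 the groups did not overlap, and 11 of the 19 had an unadjusted p under 0.05, against 7.21% of all. The calls of Bgn and Fmod were lost without tolerant replicate 3 or without tolerant replicate 4, with a filter on dim probe sets and with all 35556 probe sets tested, where limma called 0 probe sets in all.

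Genes that process and cross-link collagen had 22 of 28 measured members with a difference above 0, a median of 0.10 and 0 that passed. The 2 at an unadjusted p under 0.05 are a share near the 7.21% of all probe sets. Pcolce, which enhances the removal of the end of procollagen, read 0.99 and 0.91 in the rejecting pair and 2.88 and 2.28 in the tolerant pair, a difference of 1.63 (SE 0.21, limma adjusted p = 0.150). Loxl1, a cross-linking enzyme, read 0.71 and 0.47 against 1.50 and 1.53, a difference of 0.92 (limma adjusted p = 0.172). Both lay under the line in the rejecting pair, and counted from the line they were higher by 1.50 and 0.44. P4ha1 and P4hb, the subunits of the enzyme that hydroxylates proline in collagen, had differences of 0.50 and 0.35 (limma adjusted p = 0.688 and 0.700).

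Partners of type IV collagen in basement membranes had 12 of 17 with a difference above 0, a median of 0.13 and 0 that passed. An unadjusted p under 0.05 was found in 4, against 7.21% of all probe sets, a share that also stands beside the counts of the next lists. Of the 17, 11 lay under the line on all 8 arrays. Nid1, nidogen, which links laminin to type IV collagen, read 0.38 and 0.39 in the rejecting pair and 1.61 and 0.97 in the tolerant pair (limma adjusted p = 0.431). Of these values, only that of tolerant sample 3 lay above the line. Npnt, Fbln1 and Hspg2, the last the proteoglycan perlecan, had differences of 0.83, 0.83 and 0.39 (limma adjusted p = 0.180, 0.184 and 0.515). Their rejecting means were under the line, and counted from the line they were higher by 0.58, 0.28 and 0.23. Among collagen receptors, 9 of 13 had a difference above 0, with a median of 0.05, and 0 passed, with 2 at an unadjusted p under 0.05. Ddr2, a receptor kinase for fibrillar collagen, and Lair1, an inhibitory collagen receptor of leukocytes, had differences of 0.44 and -0.26, and Antxr1 and Itga11 had 0.31 and -0.26. Of the 13, 9 lay under the line on all 8 arrays, Ddr2, Lair1 and Itga11 among them. Among proteases that cut collagen and their inhibitors, 11 of 16 had a difference above 0, with a median of 0.07, and 0 passed, with 2 at an unadjusted p under 0.05. Both were inhibitors, Timp3 (1.35, limma adjusted p = 0.0581) and Timp2 (0.79, limma adjusted p = 0.301), while the proteases Mmp2 and Mmp16 had 0.24 and 0.22. Of the 16, 13 lay under the line on all 8 arrays, Mmp16 among them, and Timp3 was higher by 0.74 when counted from it. For each of these lists the median over all probe sets tested was -0.01.

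Summed markers of several other cell types stood higher in tolerant samples 3 and 4 than in rejecting samples 3 and 4. Of the 42 collagen genes, 15 were also higher without overlap and 2 lower, against 19.3% and 20% of all probe sets. The part of these cell types in the collagen differences was not tested. In the fibroblast and mesenchymal list without collagens, 14 of 16 measured markers had a difference above 0, and its summed level on a linear scale was 31.7 to 35.0 in the rejecting pair and 45.1 to 48.0 in the tolerant pair. Sums on a linear scale, here and below, weigh the brightest members most. An unadjusted p under 0.05 was found in 8 of the 16, against 7.21% of all probe sets. Loxl1, Fbln1 and Dpt had the smallest unadjusted p of this list, with differences of 0.92, 0.83 and 0.59, and Vim had its largest difference, 1.09. Loxl1, Fbln1, Dpt and Lox also belong to the lists of collagen partners above. Their values count in both places, so these lists are not separate observations. Counted from the line, Loxl1 and Fbln1 were higher by 0.44 and 0.28. Of the 16, 8 lay under the line on all 8 arrays, among them Dpt and the fibroblast receptors Pdgfra and Pdgfrb. The endothelial list had 10 of 15 above 0, with sums of 23.4 to 25.1 against 28.3 to 29.9, and 5 of the 15 had an unadjusted p under 0.05. Emcn, Eng and Plvap had differences of 1.25, 0.71 and 0.51, while 9 markers, Pecam1, Cdh5 and Kdr among them, were under the line on all 8 arrays. Counted from the line, under which their rejecting means lay, Emcn and Eng were higher by 0.55 and 0.38. The macrophage and monocyte list had 12 of 17, with sums of 24.5 to 31.8 against 47.3 to 52.7, and 5 of the 17 had an unadjusted p under 0.05. Lyz2, C1qb and Cd68 had differences of 2.40, 2.00 and 1.05, while 9 markers, Adgre1, Cd14 and Itgam among them, were under the line on all 8. Cd68 had a rejecting mean under the line and was higher by 0.72 when counted from it. The kidney tubule list had 14 of 16, with sums of 29.0 to 32.1 against 75.0 to 157.4, and Cubn, Lrp2, Kap, Slc22a6 and Slc5a2 were under the line on all 8. The differences of this list had a median of 0.56 and reached 3.69, so its sums do not stand for all its members. An unadjusted p under 0.05 was found in 8 of its 16 members. Slc12a3 and Calb1 passed (limma adjusted p = 0.0359 and 0.0440), 2 of 16 against 0.0518% of all probe sets. These 2 had the same loss of calls as Bgn and Fmod. Counted from the line, under which both lay in the rejecting pair, they were higher by 2.69 and 0.98. The epithelial list had 10 of 14, with sums of 23.8 to 24.7 against 25.4 to 29.4, and Epcam was under the line on all 8. Of the 14, 4 had an unadjusted p under 0.05.

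The sums of the remaining lists lay closer together or overlapped, apart from those of T cells. The smooth muscle and pericyte list had 8 of 15 above 0, with sums of 24.5 to 25.3 against 25.4 to 25.5, and 13 of its 15 markers were under the line on all 8 arrays. The podocyte list had 4 of 8, with sums of 14.6 to 15.8 against 14.8 to 16.2, and Wt1 and Synpo were under the line on all 8. The cartilage and bone list had 7 of 13, with sums of 20.9 to 21.3 against 20.8 to 21.6, and Acan, Matn1 and Sp7 were under the line on all 8. The T cell list had 12 of 16 above 0, with sums of 33.1 to 36.1 against 36.8 to 51.8. Cd3e, Cd3g and Cd8b1 had the smallest unadjusted p of that list, with differences of 1.36, 0.58 and 0.26. Cd3g had a rejecting mean under the line and was higher by 0.51 when counted from it. In the order given, these lists had 0 of 15, 3 of 8, 2 of 13 and 2 of 16 members at an unadjusted p under 0.05.

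**Figure D5:**
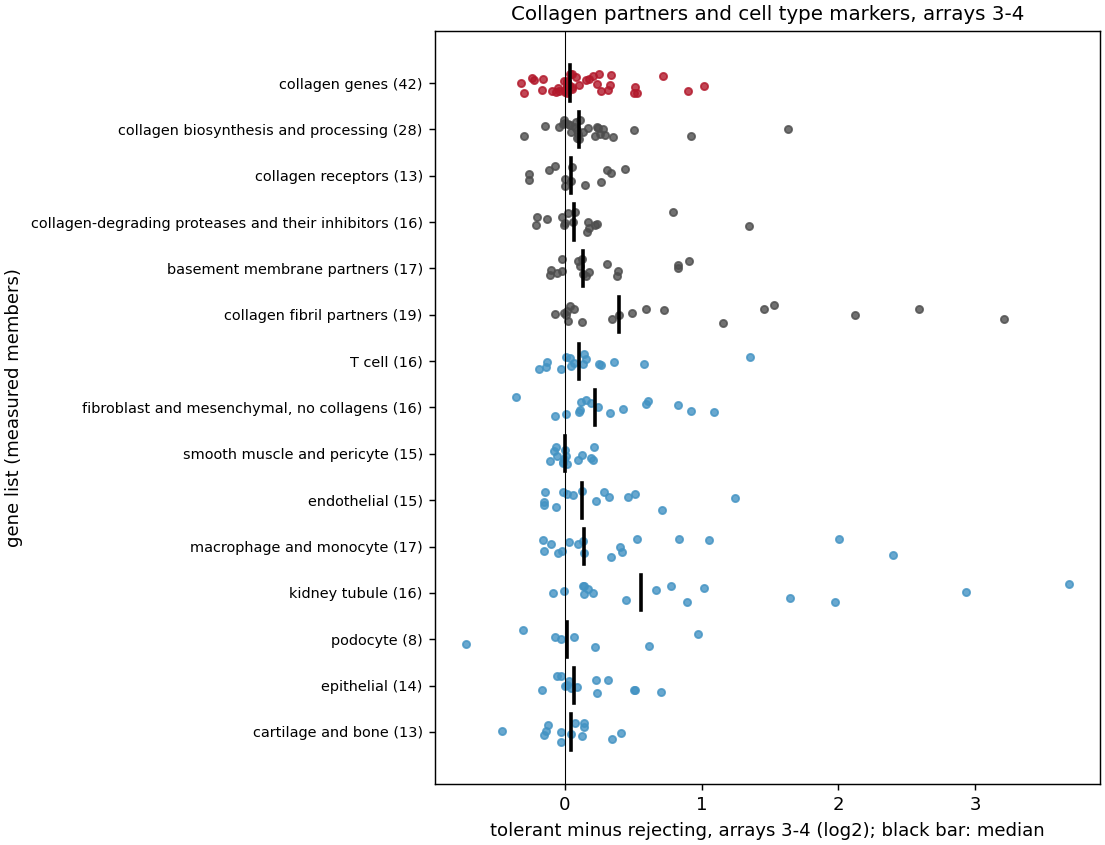
Difference between tolerant and rejecting samples of arrays 3 and 4, in log2 units, for each measured member of the collagen genes (red), the lists of collagen partners (grey) and the lists of cell type markers (blue), with the median as a black bar. The fibril partners have a median of 0.40 and the kidney tubule list one of 0.56, against 0.04 for the collagen genes.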

How the data were processed

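Total RNA of graft T cells was measured on 8 biotin-labelled arrays, 4 rejecting and 4 tolerant. The deposited table holds log2 values of 35556 probe sets. The authors made them by RMA in Affymetrix Expression Console, according to the submitters' processing notes. The software version is not given in the sources used, and base 2 was taken because the highest values would lie beyond a scanner's range on another log scale. RMA, as usually run, equalises probe intensities between arrays, which can hide a general difference in signal. Gene names came from the platform annotation (1881 probe sets had several symbols and 12457 none listed), and symbols were updated by Entrez identifier from the gene table of GRCm38.p6. The 5 pathway and 9 marker lists held 241 entries, of which 223 were measured, and some genes stand in several lists.

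Differences were tested with limma (lmFit and eBayes), 2-sided, adjusted over the 21218 probe sets by Benjamini-Hochberg, with a threshold of 0.05. It was fitted on all 8 arrays, on arrays 3 and 4, on arrays 1 and 2, and as an interaction. The fits were checked on simulated data. Of 100 simulated differences of 1, limma called 78 over all 8 arrays, 43 on arrays 3 and 4 and 31 on arrays 1 and 2. Of 100 differences of 3 it called 100, 93 and 95. A gene that was not called can therefore still differ. The number of arrays limits the precision. The members and lists were chosen with earlier results of these data known. Named genes were 12 fixed chains, genes above the line on all 4 arrays numbered 3 and 4, those passing in any fit, and the 4 others with the largest difference. In lists, those passing and up to 4 with the smallest unadjusted p were named. In marker lists, up to 3 were named, and Vim and the defining markers under the line were chosen after their values were seen.

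Arrays that share a number in both groups had deviations from their group mean that correlated at 0.499, 0.507, 0.410 and 0.599 for numbers 1 to 4. Differently numbered arrays of the same set correlated about as much, at 0.497, 0.483, 0.411 and 0.581, so these values follow the set of arrays, and pairing by number within a set was not shown. Alternatives were this number as a block, the set of arrays as a block, each array left out, quantile normalization, median centring, a filter on dim probe sets, all probe sets, 1 probe set per gene, the mean over the probe sets of a gene, array weights, moderation with trend and robust settings, and 1 fit of all arrays. R 4.3.3, limma 3.58.1, Python 3.11.15 and matplotlib 3.10.9 were used.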

Additional observations from a re-analysis of the deposited data

Results flagged for a closer look

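Of 84 groups of 4 values, those of each of the 42 collagen genes in rejecting and in tolerant samples, 2 held a sample far from the other 3. For 4 values of equal spread chance gives about 1 in 20, which 2 of 84 does not exceed. Each group mixes both sets of arrays, so that rate is only a guide here. Col6a3, a type VI chain, read 0.92 in tolerant sample 4, against 0.64 to 0.68 in the other tolerant samples. Col6a4, another type VI chain, read 1.03 in tolerant sample 3, against 0.72 to 0.76 in the others. Both genes lay under the background line on all 8 arrays.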

How the results depend on the processing

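Limma called 0 of the 42 collagen genes in all 4 comparisons under every alternative run but 1, the fit of all 8 arrays together for the contrast on arrays 3 and 4, which called 2. Of 1586 values of the 26 named collagen genes under alternatives, 1532 kept their call and lay within 1 SD of the main value, 52 moved further and 2 passed the threshold. None of these genes was called in the main fits, and a value can change sign within 1 SD, so the tally does not show stable differences. Col6a1 on arrays 3 and 4, for example, ran from -0.50 to 0.30 with 1 array left out and was counted as kept. The number of all probe sets called on arrays 3 and 4, 11 as reported, was 0 with a filter on dim probe sets, 0 with all probe sets, 38 with 1 probe set per gene, 45 with the mean over the probe sets of a gene, 26 with trend and robust moderation, 81 in the fit of all 8 arrays, and 0 to 48 with 1 array left out. It was 0 without tolerant replicate 3 and without tolerant replicate 4, and 48 without rejecting replicate 4. On arrays 1 and 2 it was 0 to 2 with 1 array left out. For the difference between the sets, 12 as reported, it was 0 after quantile normalization, 6 with the filter, 0 with all probe sets, 28 with 1 probe set per gene, 33 with the mean, and 0 to 76 with 1 array left out. With the replicate number as a block it was 8 on arrays 3 and 4 and 7 for the difference between the sets, and the block changed no call of a collagen gene.

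The median collagen difference on arrays 3 and 4 was 0.04, with 0.18 under the filter, 0.00736 after quantile normalization and 0.00452 to 0.13 with 1 array left out. Over all 8 arrays it was 0.03, with -0.06 to 0.12 with 1 array left out. On arrays 1 and 2 it was -0.01, with 0.0780 under the filter and -0.0654 to 0.0114 with 1 array left out. For the difference between the sets it was 0.10, with 0.20 under the filter and 0.0421 to 0.156 with 1 array left out. The filter keeps fewer collagen genes, those with a mean above the line, and the cause of the other shifts was not tested. Low signal also limits the comparison: 11 of the 42 genes lay above the line on no array.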
